A study of Mus musculus with 17 samples.

Results

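The clustered protocadherins are 3 arrays of cell adhesion genes that lie one after the other on a single mouse chromosome. They were taken by symbol from the RNA-seq table (symbols that begin with Pcdha, Pcdhb or Pcdhg followed by an isoform number or a C-type name). This gave 57 of the 20328 listed genes, 13 in the alpha cluster, 22 in the beta cluster and 22 in the gamma cluster, and all 57 passed the low-count filter. The mice were wild type animals of the ICR strain, and the RNA came from their brains. Sham controls (n = 2 libraries) were compared with a 6-OHDA-induced PD model (n = 1) and with an NDST3-treated PD model (n = 2). The PD model was made by injecting the neurotoxin 6-hydroxydopamine (10 µg/µl) into the substantia nigra on 1 side at 8 weeks of age. In the NDST3-treated PD model an AAV of serotype 9 with human NDST3, an enzyme that modifies heparan sulfate, was injected into the same region 5 days later, where the untreated PD model had saline. Its CMV promoter is active in many cell types, so the promoter does not select a cell type. Which cells took up the vector was not tested here. What the sham injection contained, and how many mice gave each library, was not given in the sources used here. The p-values therefore measure the spread between these libraries, and the single 6-OHDA library was assumed to vary like the others.

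Protocadherins of the clusters sit on the neuronal surface, where each isoform binds the same isoform on another membrane. Each neuron switches on its own small set of variable isoforms by a choice among promoters that depends on CTCF and cohesin, and the resulting surface code lets the branches of a neuron tell themselves from others. The C-type isoforms are controlled separately from this random choice. Pcdhac2 is known for the tiling of serotonergic axons, Pcdhgc4 for the survival of neurons, Pcdhgc3 for dendrite growth through Axin1, and Pcdhgc5 for binding to GABA-A receptors. Gamma isoforms are also made by astrocytes.

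The order of the genes sets what can be counted. In the RefSeq annotation of GRCm38 the alpha cluster runs on chromosome 18 from 36930285 to 37188897, the beta cluster from 37264998 to 37521419, and the gamma cluster from 37661775 to 37841873. Each alpha or gamma gene has its own first exon, which is spliced to exons used by every isoform of that cluster, whereas each beta gene is a single exon. The shared exons make up 43.3% to 54.6% of an alpha transcript, 22.7% to 45.8% of a gamma transcript, and none of a beta transcript. The length implied by the deposited count and FPKM of a gene was, by the median, 1.07 times its whole RefSeq transcript in each cluster, so the shared exons are part of the counted length. How the reads of shared exons were split among isoforms was not given, so the isoform values of alpha and gamma are uncertain to that extent and those of beta are not. Pcdha7 is annotated but is not among the listed genes, Pcdhgb8 is a transcribed pseudogene, and Gm38667, a read-through model that spans the clusters, was listed with 51 to 150 counts per library.

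The total count was 51003699 to 70533326 per library, which makes counting error small for all but a few members. The lists of cell type markers differed between the groups on the same scale. The 10 neuron markers summed to 8075 and 8909 CPM (counts scaled to a common library size, with TMM factors) in sham, 2952 in 6-OHDA and 7090 and 6119 in 6-OHDA+NDST3, and all 10 were lower in 6-OHDA than in sham by adjusted p. The 8 microglia markers summed to 391 and 298 CPM in sham, 2324 in 6-OHDA and 807 and 1330 in 6-OHDA+NDST3, and the 8 astrocyte markers to 6542 and 5449, 12133, and 7686 and 8186 CPM. The 7 markers of ependyma or choroid plexus summed to 1203 CPM in 6-OHDA+NDST3 replicate 2 and to at most 113 CPM in the other 4 libraries. Every marker listed had counts in all 5 libraries, while several of neutrophils, T cells and B cells were not among the listed genes. Fewer cells of a type and less RNA per cell cannot be told apart in bulk RNA, and the part of these shifts in the results below was not tested.

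Levels per length were uneven within and between the clusters. By mean FPKM (fragments per kilobase of transcript, scaled to library size) over the 5 libraries, Pcdhgc3 was first of all members at 44.6, followed by Pcdhac2 at 9.66, Pcdhgc4 at 9.10 and Pcdhgc5 at 6.88. The median member had 3.50 FPKM in gamma, 1.29 in beta and 1.07 in alpha. The leading genes after the C-type isoforms were Pcdhga7 at 5.98 and Pcdhgb6 at 5.87 FPKM in gamma, Pcdhb9 at 3.50 and Pcdhb17 at 3.16 FPKM in beta, and Pcdha12 at 1.86 FPKM in alpha. The lowest were Pcdha8 at 0.0365, Pcdhb1 at 0.0708 and the pseudogene Pcdhgb8 at 0.231 FPKM.

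The first comparison, the 6-OHDA-induced PD model against sham, asks how these genes differed after the lesion. All 13 alpha genes had lower values in 6-OHDA, 16 of 22 beta genes did, and 8 of 22 gamma genes did, beside 50.2% of all 19300 genes tested, while 14 of 22 gamma genes had higher values, beside 49.8% of all genes. The median log2 fold change was -0.94 in alpha, -0.43 in beta and 0.09 in gamma, beside -0.00245 over all genes. At an adjusted p below 0.05, taken from the quasi-likelihood test of edgeR with the Benjamini-Hochberg method over all genes, 9 of 57 members changed, 7 lower and 2 higher, beside 35.8% of all genes (17.1% lower, 18.8% higher). The share of members called, 15.8%, lay under that background. The lower calls were 4 of 13 in alpha, 1 of 22 in beta and 2 of 22 in gamma, and both higher calls were in gamma.

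**Figure D1:**
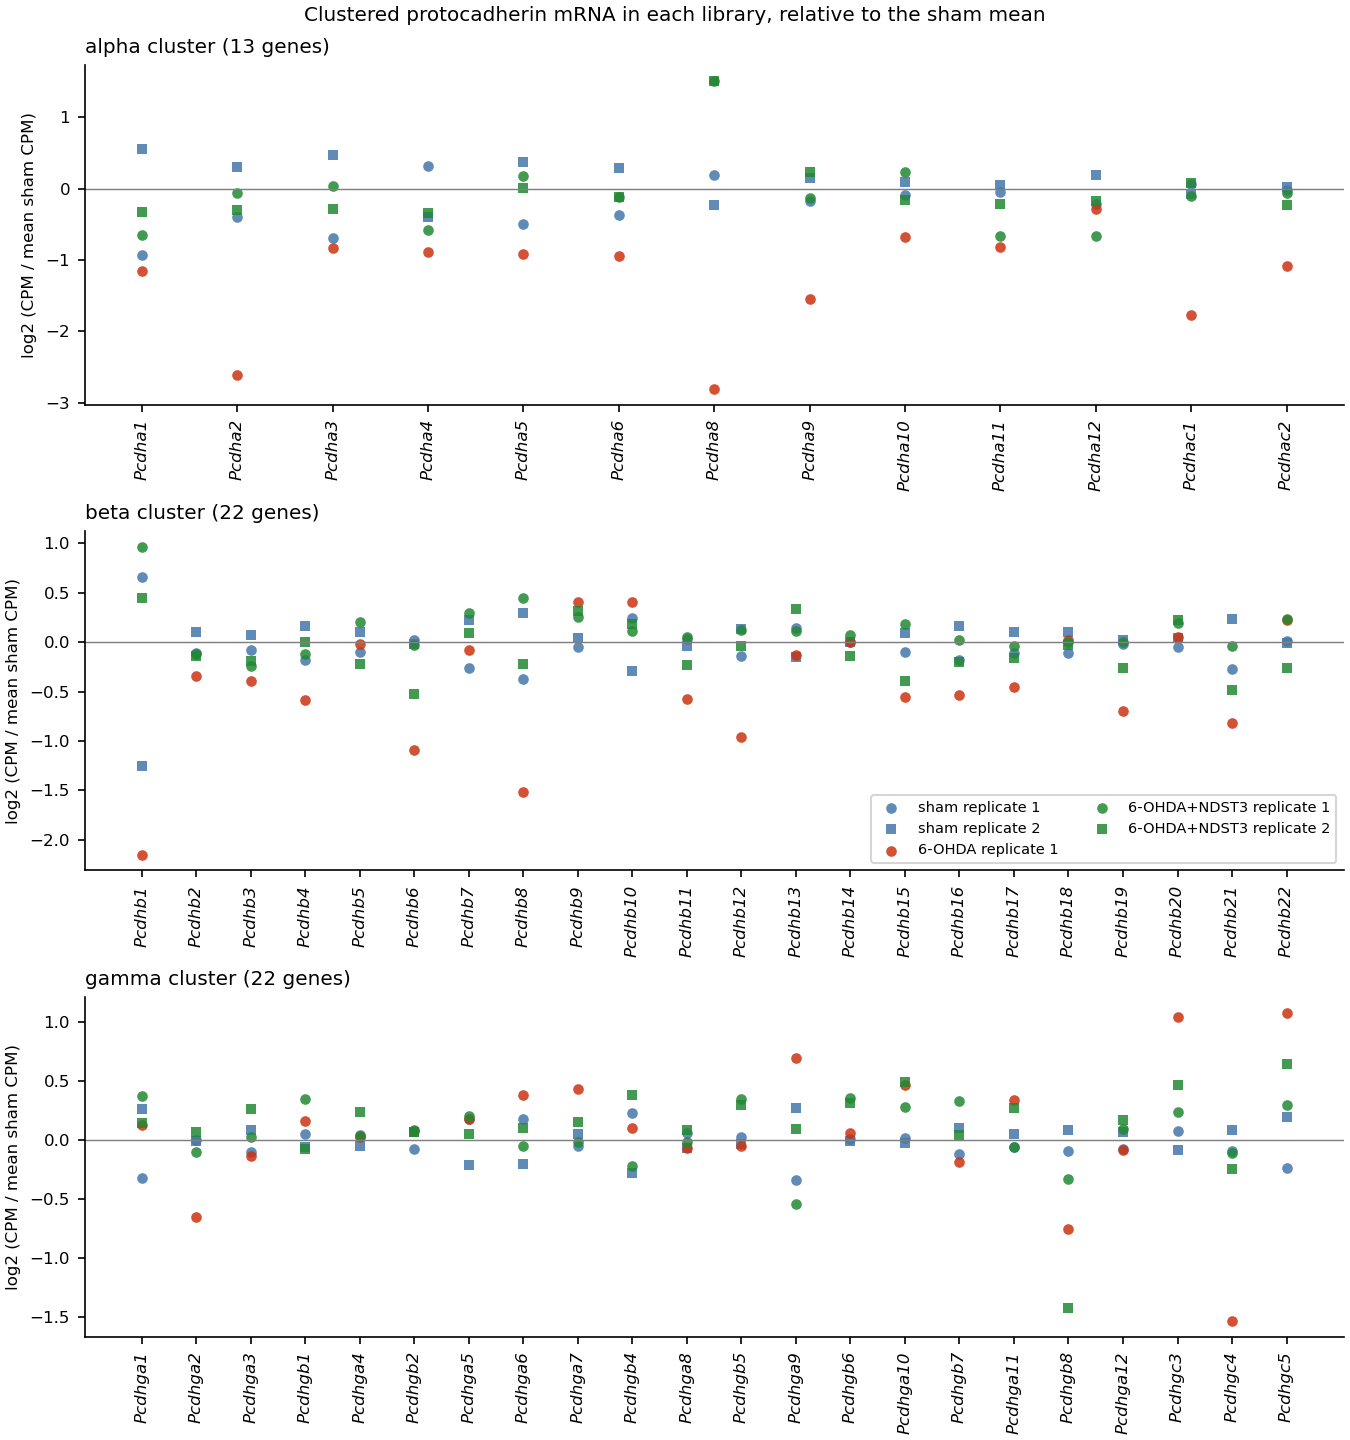
Each point is 1 library's CPM of 1 gene divided by the mean CPM of the 2 sham libraries (log2 scale), with genes in chromosomal order in 3 panels. The 6-OHDA library lies lowest for 12 of 13 alpha genes, while in gamma it lies lowest for 7 and highest for 6 of 22 genes. Over all genes tested it lies lowest for 37.9% and highest for 38.9%.

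In the alpha cluster the 6-OHDA library was the lowest of the 5 for 12 of 13 genes and the highest for none, beside 37.9% and 38.9% of all genes. The exception was Pcdha12, which had 1.88 and 2.35 FPKM in sham, 1.76 in 6-OHDA, and 1.33 and 1.96 in 6-OHDA+NDST3, with a log2 fold change of -0.29 (standard error, SE, 0.29, edgeR adjusted p = 0.477). The C-type isoform Pcdhac2 had 11.34 and 11.03 FPKM in sham, 5.35 in 6-OHDA, and 10.7 and 9.90 in 6-OHDA+NDST3. The 4 values of the other groups all lay above the 6-OHDA value, and those of 6-OHDA+NDST3 lay just under those of sham. Pcdhac2 fell by 1.09 in log2 units (SE 0.13, edgeR adjusted p = 0.00847). The 7 markers of serotonergic neurons, a cell type that uses Pcdhac2, summed to 362 and 182 CPM in sham, 15.6 in 6-OHDA and 184 and 144 in 6-OHDA+NDST3. The markers of dopaminergic neurons summed to 954 and 915, 170, and 297 and 280 CPM. The part of either cell type in the fall of Pcdhac2 was not tested.

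The other C-type isoform of the cluster, Pcdhac1, had 1.11 and 0.957 FPKM in sham, 0.305 in 6-OHDA, and 0.953 and 1.14 in 6-OHDA+NDST3. Pcdhac1 fell by 1.77 (SE 0.26, edgeR adjusted p = 0.0104). Among the variable isoforms, Pcdha2 had 1.39 and 2.14 FPKM in sham, 0.293 in 6-OHDA, and 1.69 and 1.49 in 6-OHDA+NDST3, and fell by 2.61 (SE 0.40, edgeR adjusted p = 0.0109). Pcdha9 had 0.702 and 0.830 FPKM in sham, 0.264 in 6-OHDA, and 0.695 and 0.936 in 6-OHDA+NDST3, and fell by 1.55 (edgeR adjusted p = 0.0239). For Pcdhac1, Pcdha2 and Pcdha9 the sham and 6-OHDA+NDST3 values overlapped, and neither group reached down to the 6-OHDA value.

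The sham libraries themselves differed over several variable alpha isoforms. Pcdha1 had 0.370 and 0.984 FPKM in sham and 0.310 in 6-OHDA, and Pcdha3 had 0.951 and 2.01 in sham and 0.849 in 6-OHDA. Sham replicate 1 lay close to the lesion value in both, and their adjusted p were 0.238 and 0.260 from edgeR. Pcdha4 went the other way between the sham libraries, with 2.32 FPKM in replicate 1 and 1.35 in replicate 2. Pcdha8 is at the edge of detection, with 8 and 8 counts in sham, 1 in 6-OHDA and 23 and 23 in 6-OHDA+NDST3. The ratio of the 6-OHDA rate to that of sham was 0.148 (95% exact interval 0.00353 to 0.952, counting error only).

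The beta genes have no shared exon, so their values do not depend on a split of shared-exon reads. Whether reads fitted more than 1 beta gene by sequence was not tested. The 6-OHDA library was lowest for 13 of 22 and highest for 2, beside 37.9% and 38.9% of all genes. Pcdhb12 was the only beta gene that edgeR called by adjusted p, while DESeq2 also called Pcdhb6 and Pcdhb8 and limma on log2(FPKM + 0.1) also Pcdhb6. It had 1.62 and 1.84 FPKM in sham, 0.897 in 6-OHDA, and 1.88 and 1.75 in 6-OHDA+NDST3, and fell by 0.96 (SE 0.26, edgeR adjusted p = 0.0425). Pcdhb8 had 1.11 and 1.68 FPKM in sham, 0.496 in 6-OHDA, and 1.90 and 1.25 in 6-OHDA+NDST3, with a log2 fold change of -1.52 that missed the adjusted threshold (SE 0.49, edgeR adjusted p = 0.0674). The highest beta gene, Pcdhb9, was on the other side, with 2.995 and 3.03 FPKM in sham, 4.04 in 6-OHDA, and 3.56 and 3.88 in 6-OHDA+NDST3 (log2 fold change 0.40, SE 0.15, edgeR adjusted p = 0.102). The second highest, Pcdhb17, had 3.24 and 3.57, 2.51, and 3.29 and 3.17 FPKM (log2 fold change -0.46, edgeR adjusted p = 0.113). Pcdhb10 had a log2 fold change of 0.40 with a larger SE (0.28). Pcdhb1 had 14 and 5 counts in sham and 2 in 6-OHDA, a ratio of 0.249 whose 95% exact interval, 0.0281 to 1.03, includes 1.

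The gamma cluster held changes in both directions. By edgeR's adjusted p 2 of 22 genes were lower and 2 higher. This is 18.2% of the cluster, under the 35.8% of all genes (17.1% lower, 18.8% higher). The largest changes were in its C-type isoforms, as the plot of FPKM shows. Pcdhgc3 had 36.1 and 30.6 FPKM in sham, 69.6 in 6-OHDA, and 39.1 and 47.7 in 6-OHDA+NDST3. Its 6-OHDA value was above all 4 others, and Pcdhgc3 rose by 1.05 in log2 units (SE 0.14, edgeR adjusted p = 0.00955). Pcdhgc5 had 4.31 and 5.51 FPKM in sham, 10.6 in 6-OHDA, and 6.01 and 7.99 in 6-OHDA+NDST3, and rose by 1.08 (SE 0.23, edgeR adjusted p = 0.0241). Pcdhgc4, whose first exon lies between those of the other two, moved the other way. It had 10.6 and 11.3 FPKM in sham, 3.85 in 6-OHDA, and 10.1 and 9.61 in 6-OHDA+NDST3, and fell by 1.53 (SE 0.14, edgeR adjusted p = 0.00823), with the lowest p of all members. Beside these genes, the summed astrocyte markers were 12133 CPM in 6-OHDA and at most 8186 CPM in the other libraries. Of these 8 markers, 6 were higher and 2 lower in 6-OHDA than in sham (4 and 1 by edgeR's adjusted p). The 8 markers of mural cells or fibroblasts summed to 480 and 324 CPM in sham, 1325 in 6-OHDA, and 240 and 307 in 6-OHDA+NDST3. Sums of other lists, among them microglia and oligodendrocyte precursors, were also highest in 6-OHDA. The part of any cell type in these changes was not tested.

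**Figure D2:**
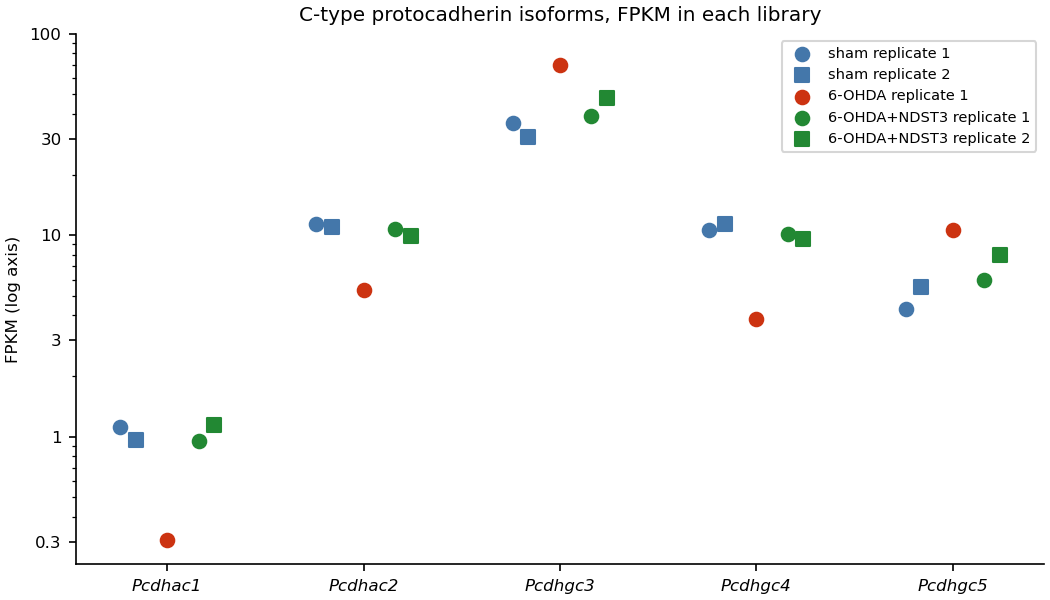
FPKM (log axis) of the 5 C-type isoforms, 1 point per library. The red 6-OHDA point lies below the other 4 for Pcdhac1, Pcdhac2 and Pcdhgc4 and above them for Pcdhgc3 and Pcdhgc5.

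The opposite movement can be read within each library, where no scaling between libraries enters. The ratio of the FPKM of Pcdhgc3 to that of Pcdhgc4 was 3.41 and 2.69 in sham, 18.1 in 6-OHDA, and 3.86 and 4.97 in 6-OHDA+NDST3. The ratio of Pcdhgc3 to Pcdhgc5, which moved together, was 8.36 and 5.54, 6.59, and 6.50 and 5.98. The ratio of Pcdhgc4 to Pcdhac2, from another cluster, was 0.932 and 1.03, 0.719, and 0.947 and 0.971. The 6-OHDA library thus lay inside the sham range for Pcdhgc3 to Pcdhgc5, at more than 5 times the higher sham value for Pcdhgc3 to Pcdhgc4, and below it for Pcdhgc4 to Pcdhac2.

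The A-type and B-type gamma isoforms had smaller values. Their median log2 fold changes were 0.15 for 12 A-type and 0.06 for 7 B-type genes. Pcdhga2 was the only one with an adjusted p under 0.05, with 2.65 and 2.51 FPKM in sham, 1.67 in 6-OHDA, and 2.39 and 2.81 in 6-OHDA+NDST3 (it fell by 0.65, SE 0.17, edgeR adjusted p = 0.0381). Pcdhga9 had the largest positive value of these types, 0.69, but 3.75 and 5.40 FPKM in the sham libraries beside 7.54 in 6-OHDA (edgeR adjusted p = 0.184). The pseudogene Pcdhgb8 had the largest negative value, -0.75 (edgeR adjusted p = 0.356). With a 2-fold change and an unadjusted p below 0.05 as the criterion, 10 of 57 members were called, 8 lower and 2 higher, beside 24.5% of all genes (10.1% lower, 14.4% higher).

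These calls rest on a small design. Without sham replicate 1, and likewise without sham replicate 2, the adjusted calls were lost for members and for all other genes. The median log2 fold change of alpha was then -1.28 and -0.77. With the replicate number as a block, 4 members were called (Pcdhac2, Pcdhgc4, Pcdhgc5 and Pcdhga9) beside 9.31% of all genes.

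**Figure D3:**
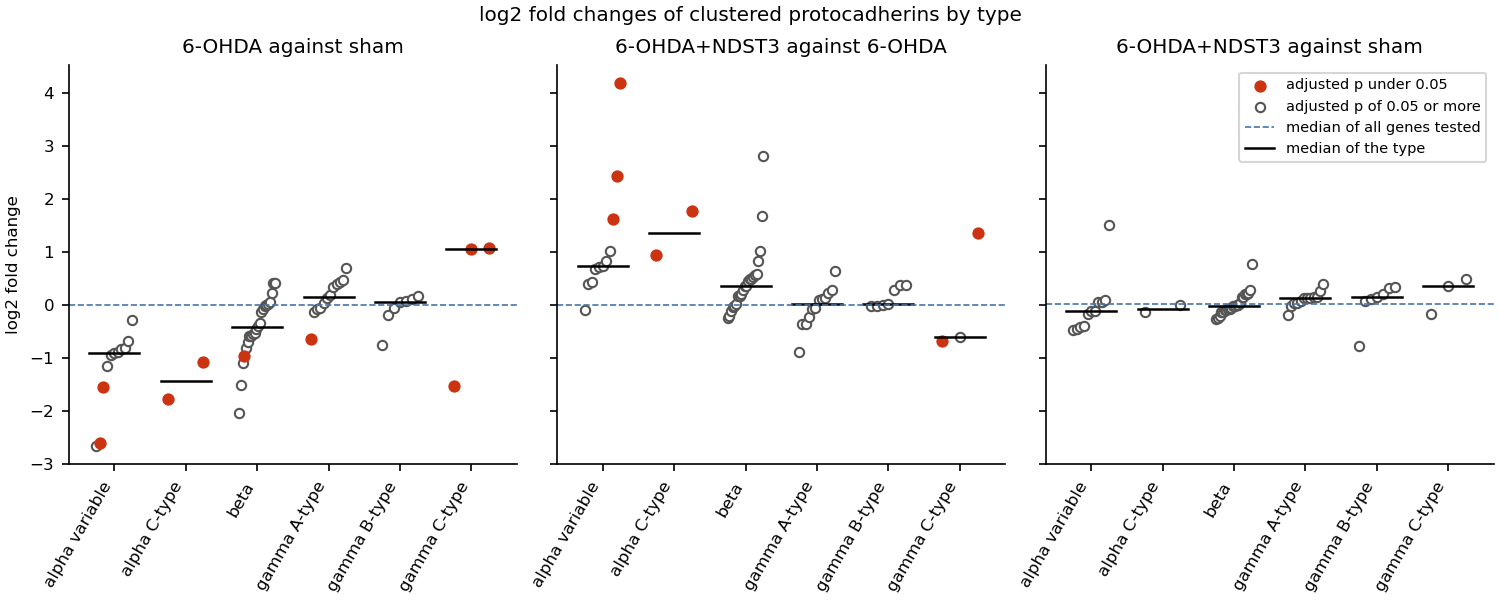
log2 fold change of each gene (points) by type in the 3 comparisons, with filled points for an adjusted p under 0.05, black lines for the median of the type and a dashed line for the median of all genes tested. In the left panel the alpha types lie below the dashed line and the gamma C-type genes lie on both sides of it.

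The second comparison set the NDST3-treated against the untreated PD model. It shares its 6-OHDA library with the first, so a single library decides the sign of both and the values are given side by side only. Values were higher in 6-OHDA+NDST3 for 12 of 13 alpha, 17 of 22 beta and 12 of 22 gamma genes, beside 50.2% of all genes, and lower for the rest, beside 49.8%. The median log2 fold change was 0.83 in alpha, 0.36 in beta and 0.01 in gamma. By adjusted p, 7 of 57 members changed, 6 higher and 1 lower, beside 15.6% of all genes (9.06% higher, 6.59% lower).

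The genes that rose were Pcdhac2 (by 0.95, edgeR adjusted p = 0.0320), Pcdhgc4 (by 1.36, adjusted p = 0.0320), Pcdhac1 (by 1.77, adjusted p = 0.0336), Pcdha2 (by 2.43, adjusted p = 0.0346), Pcdha8 and Pcdha9 (by 1.61, adjusted p = 0.0433). For Pcdha8, with 1 count in the 6-OHDA library and 46 counts over both 6-OHDA+NDST3 libraries, the rate was 19.9 times that of 6-OHDA, with a 95% exact interval of 3.39 to 802 that covers counting error only (edgeR adjusted p = 0.0380). Pcdhgc3 fell by 0.69 (SE 0.15, edgeR adjusted p = 0.0441), and Pcdhgc5 had a log2 fold change of -0.60 (adjusted p = 0.135). Pcdha12 had a value of -0.10 (edgeR adjusted p = 0.824), the only negative one in alpha. By edgeR no beta gene passed the adjusted threshold. An unadjusted p under 0.05 was found for 2 of 22 beta genes, beside 7321 of all 19300 genes. DESeq2 called 2 beta genes, beside 26.9% of all genes, and limma on log2(FPKM + 1) called 1, beside 12.3%. The closest was Pcdhb12 with 1.01 (edgeR adjusted p = 0.0599). The largest values were those of Pcdhb8, with 1.67 (edgeR adjusted p = 0.0778), and Pcdhb1, whose rate was 7.34 times that of 6-OHDA with an exact interval of 1.88 to 63.1. The lowest beta values were -0.25 for Pcdhb10 and -0.22 for Pcdhb22. Pcdhga2 had 0.63 (edgeR adjusted p = 0.0618) and Pcdhga9 -0.88 (adjusted p = 0.138). By the 2-fold criterion 7 members were higher and none lower, beside 15.7% of all genes (7.3% higher, 8.37% lower).

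The calls depended on single libraries. With 1 replicated library left out, most fits lost the adjusted calls of members and of nearly all other genes alike. Across these fits the alpha median ran from 0.83 to 0.88 and the beta median from 0.25 to 0.36. With the replicate number as a block, none of the 19300 genes passed. DESeq2 called 9 members, with Pcdhb12, Pcdhb8 and Pcdhga2 in addition and without Pcdha8, beside 26.9% of all genes by the same tool.

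The third comparison set the NDST3-treated PD model against sham. No group had a control vector, so effects of lesion, vector and NDST3 cannot be told apart in it. By edgeR, no member and no gene at all had an adjusted p under 0.05. At an unadjusted p under 0.05 there were 5 members (1 in alpha, 4 in gamma) beside 2744 of all 19300 genes. DESeq2 also called no member, but 1023 genes, and both limma fits called none. The median log2 fold changes were -0.12 in alpha, -0.02 in beta and 0.13 in gamma, beside 0.0099 over all genes. Of 57 members 32 were higher, beside 51.6% of all genes, and 25 lower, beside 48.4%. The members under 0.05 by raw p were Pcdha8 (1.51, SE 0.43), Pcdhgb6 (0.34), Pcdhgc3 (0.36, SE 0.12), Pcdhga10 (0.39, SE 0.13) and Pcdhgb5 (0.32), all higher in 6-OHDA+NDST3. Of these only Pcdha8 reached a fold of 2, beside 5.86% of all genes (4.78% higher, 1.08% lower). The C-type isoforms that the lesion comparison had lower were close to sham, with -0.14 for Pcdhac2 (SE 0.10), -0.01 for Pcdhac1 (0.19) and -0.17 for Pcdhgc4 (0.11). Pcdhgc5 had 0.48 (SE 0.20, edgeR adjusted p = 0.373). The other extremes of the clusters, none with an adjusted p under 0.05, were 0.09 for Pcdha5, -0.45 for Pcdha4 and -0.48 for Pcdha1 (SE 0.52) in alpha, 0.78 for Pcdhb1 (SE 0.71), 0.28 for Pcdhb9, -0.25 for Pcdhb21 and -0.26 for Pcdhb6 in beta, and -0.19 for Pcdhga9 and -0.77 for Pcdhgb8 (SE 0.46) in gamma. Without sham replicate 2 the alpha median turned to 0.22. A p that missed the threshold does not show that the groups were equal.

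The sum of FPKM over a cluster weights its abundant genes. For alpha it was 23.8 and 26.5 in sham, 12.6 in 6-OHDA, and 22.8 and 23.0 in 6-OHDA+NDST3. For beta it was 32.5 and 33.8, 29.4, and 35.4 and 32.9, and for gamma 110 and 105, 150, and 116 and 134. The 6-OHDA library was therefore lowest in alpha and beta and highest in gamma. On summed CPM, the log2 ratio of 6-OHDA to sham was -1.02 for alpha, -0.20 for beta and 0.46 for gamma. Without Pcdhgc3 the gamma ratio was 0.09.

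**Figure D4:**
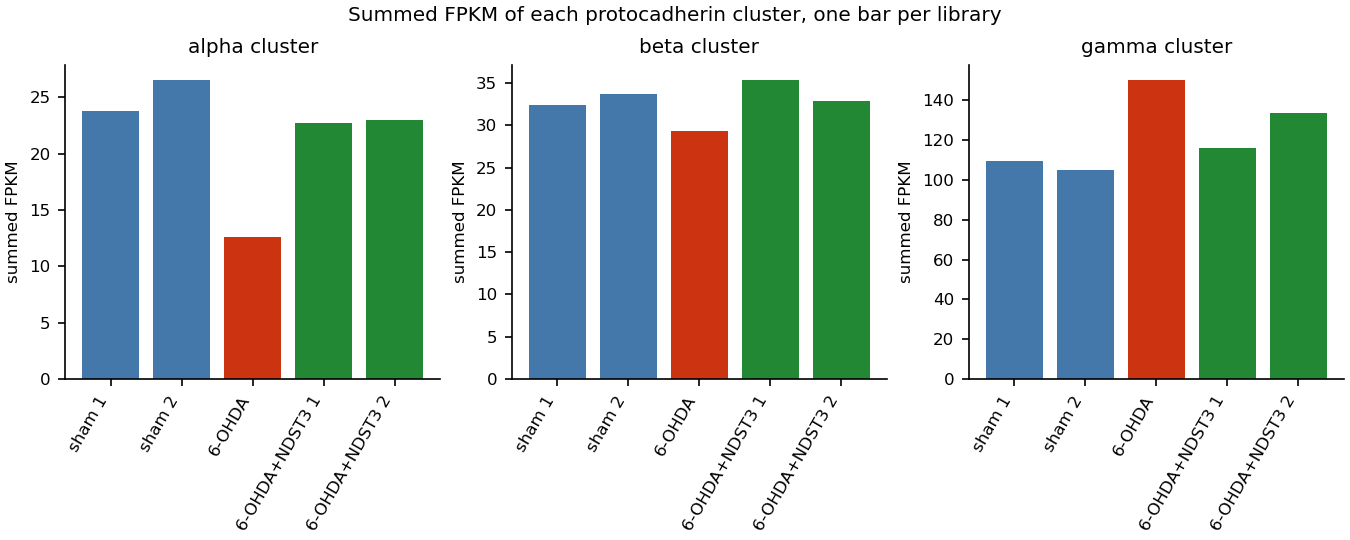
Summed FPKM of each cluster, 1 bar per library. Alpha drops to 12.6 in the 6-OHDA library and gamma reaches 150 there, while beta stays between 29.4 and 35.4 in all 5 libraries.

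The make-up of the clusters differed too. Pcdhgc3 gave 32.9% and 29.1% of gamma FPKM in sham, 46.4% in 6-OHDA, and 33.7% and 35.7% in 6-OHDA+NDST3. Pcdhgc4 gave 9.64% and 10.8% in sham, 2.56% in 6-OHDA, and 8.73% and 7.20% in 6-OHDA+NDST3. Within alpha, Pcdhac2 gave 47.6% and 41.6%, 42.5%, and 47.0% and 43.1%, so the 6-OHDA share lay inside the sham range although its level was the lowest of the 5. Of the FPKM of all 57 members, alpha held 14.36% and 16.05% in sham, 6.55% in 6-OHDA, and 13.1% and 12.1% in 6-OHDA+NDST3.

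Genes that act on the clusters were read from lists by their known roles. Of 23 regulators (CTCF, cohesin and its loaders, DNA methylation and silencing factors), 7 were higher and 2 lower in 6-OHDA than in sham by edgeR's adjusted p, which is 39.1% of the list beside 35.8% of all genes and so near that background, with a median log2 fold change of 0.18. Limma on log2(FPKM + 0.1) called 5 of the 23, beside 28.0% of all genes, and DESeq2 10, beside 38.8%. Ctcf itself, which ties promoters to enhancers of the clusters, had 0.03 (edgeR adjusted p = 0.846). Cohesin's subunits Rad21, with 0.18 (adjusted p = 0.277), and Smc3, with 0.04 (adjusted p = 0.742), did not pass either. Stag1, an alternative cohesin subunit, rose by 0.68 (adjusted p = 0.0117), and Rest, a repressor of neuronal genes, rose by 1.40 (adjusted p = 0.00889). Pds5b, a cohesin cofactor, fell by 0.65 (adjusted p = 0.0180).

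Of 21 partners in signalling and processing, 8 were higher and 5 lower in 6-OHDA by edgeR's adjusted p, 61.9% of the list beside 35.8% of all genes. Limma on log2(FPKM + 0.1) called 7 of the 21, beside 28.0% of all genes, and DESeq2 13, beside 38.8%. Adam10, the protease that sheds the protocadherin ectodomain, rose by 0.83 (edgeR adjusted p = 0.00850), and Axin1, the partner of Pcdhgc3, rose by 0.45 (adjusted p = 0.0393). The actin regulators of the WAVE complex split, since Cyfip1 rose by 1.03 (adjusted p = 0.00823) and its paralog Cyfip2 fell by 1.25 (adjusted p = 0.00962). Marcks, an actin-binding membrane protein, rose by 1.87 (adjusted p = 0.00823). In 6-OHDA+NDST3 against 6-OHDA, 2 of 23 regulators (8.70%) and 4 of 21 partners (19.0%) passed by edgeR, beside 15.6% of all genes. Limma on log2(FPKM + 0.1) called none of all 19300 genes there, and so none of either list. In 6-OHDA+NDST3 against sham no gene of either list passed by edgeR or either limma fit, which called no gene at all. By edgeR 2 regulators and 5 partners had an unadjusted p under 0.05, beside 2744 of all 19300 genes. DESeq2 called 2 partners and no regulator, beside 5.30% of all genes.

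The 12 non-clustered protocadherins, related adhesion proteins coded by separate genes, had lower values in 6-OHDA in 10 cases, beside 50.2% of all genes. By edgeR's adjusted p 7 of 12 were lower, beside 17.1% of all genes, and none higher. DESeq2 called 8, beside 38.8% of all genes in either direction. By the 2-fold criterion 3 were lower, beside 10.1% of all genes, and 1, Pcdh12, was higher, beside 14.4%. The median log2 fold change was -0.71, between those of alpha and beta. Pcdh19 fell by 1.02 (edgeR adjusted p = 0.00847) and Pcdh17 by 0.97 (adjusted p = 0.0132), while Pcdh12 had 1.41 (adjusted p = 0.0612), Pcdh1 -0.09 (adjusted p = 0.666) and Pcdh20 0.08 (adjusted p = 0.828). In 6-OHDA+NDST3 against 6-OHDA, 5 of 12 rose by edgeR's adjusted p, beside 9.06% of all genes. DESeq2 called 8, beside 26.9% of all genes, and limma on log2(FPKM + 0.1) called no gene at all.

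Single-cell RNA-seq gave means per cell cluster for the 6-OHDA and the 6-OHDA+NDST3 sample, 1 sample each and therefore with no test. The sham sample is not in that table. Against multiplets the study's methods name an upper limit on the genes detected in a cell, and since the table holds means and no single cells, doublets were not assessed here. It listed 51 clustered protocadherin symbols among 26650 genes (8 alpha, 22 beta, 21 gamma), 49 of which are also in the RNA-seq table. The symbol Pcdha11.1 was not taken as Pcdha11. Libraries of this kind read the end of the transcript, which the isoforms of alpha share, as do those of gamma. Alpha and gamma values therefore cannot be read as isoform levels, while beta genes share no exon. All means were low. On what appears to be a natural-log scale, with 1 added to counts per 10000 UMIs, the highest was 0.0687, for Pcdhga12 in cell cluster 7 of 6-OHDA. None of the 51 symbols passed a level of 0.1, beside 46.0% of all genes. A level of 0.05 was passed by 1, beside 54.3% of all genes, and 0.02 by 17, beside 64.1%.

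The signal was uneven among the 9 cell clusters. The sum over all members, after back-transforming each mean, was 0.573 and 0.589 (6-OHDA and 6-OHDA+NDST3) in cell cluster 7, 0.495 and 0.471 in cell cluster 2, and 0.342 and 0.295 in cell cluster 5. It was 0.145 and 0.136 in cell cluster 6, and at most 0.0723 in cell clusters 1, 3, 4, 8 and 9. All 7 endothelial markers were highest in cell cluster 7, 6 of 8 mural or fibroblast markers in cell cluster 5, and 7 of 8 microglia markers in cell cluster 6. Cell cluster 2 held the maximum of 7 of 8 astrocyte, 7 of 7 ependymal, 6 of 7 oligodendrocyte and 7 of 10 neuron markers. Of the 10 neuron markers at most 2 were above 0.1 in any cell cluster.

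**Figure D5:**
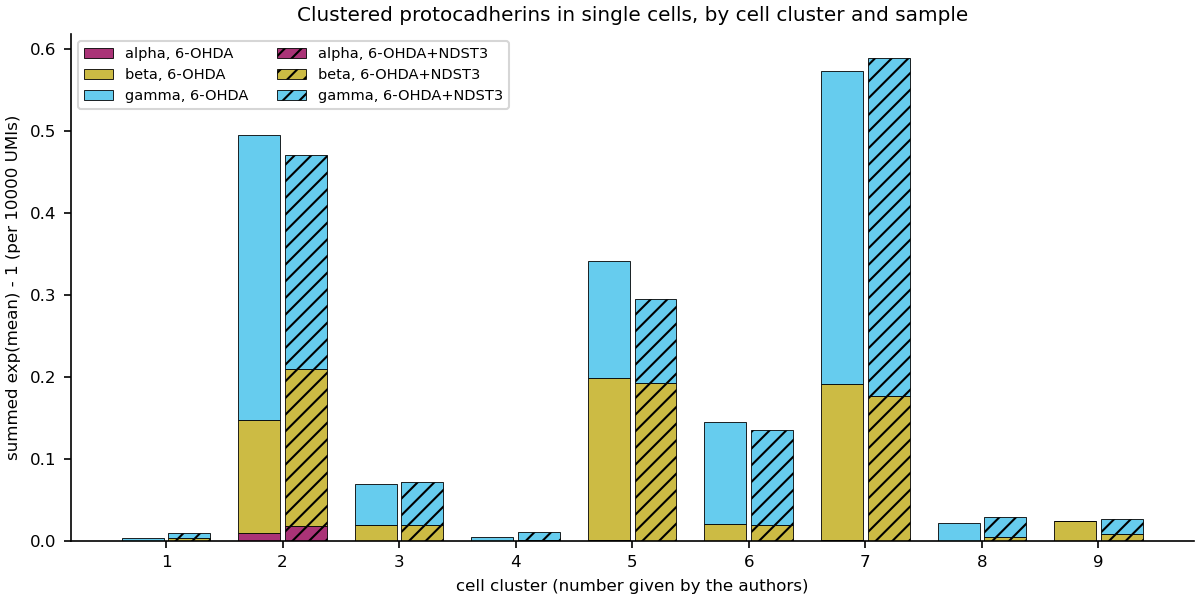
Summed level of clustered protocadherins in each cell cluster, as the exponential of each mean minus 1, added over alpha, beta and gamma members. Plain bars are the 6-OHDA sample and hatched bars the 6-OHDA+NDST3 sample, and cell clusters 2, 5 and 7 stand above the others in both.

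No difference between the 2 samples could be tested. Alpha symbols were near 0 throughout, with a summed level of at most 0.0180 (cell cluster 2 of 6-OHDA+NDST3), and no alpha symbol had a mean above 0.00563 (Pcdha4). Among beta genes, Pcdhb17 had the highest mean, in cell cluster 5, with 0.0301 and 0.0367 in 6-OHDA and 6-OHDA+NDST3, while Pcdhb14 had 0.0289 and 0.0202 there. For beta, the sum was 0.138 and 0.191 in cell cluster 2, 0.197 and 0.192 in cell cluster 5, and 0.190 and 0.177 in cell cluster 7. Some non-clustered protocadherins had higher means, with 0.873 and 1.00 for Pcdh7 and 0.841 and 0.947 for Pcdh9 in cell cluster 2. Pcdh19 had 0.471 and 0.481 in cell cluster 7. How reads from the shared ends of alpha and gamma were counted was not given, so their low means cannot be read as low expression. Pcdhgc3, first of all members in bulk at 44.6 FPKM, had a mean of at most 0.0268 here.

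Chromatin data touched few of these genes. None of 11424 regions in the H3K27ac CUT&RUN table was annotated to a clustered protocadherin. Of 11181 such regions whose gene has a GRCm38 model, 4.44% lay within 2 kb of either end of that gene. In ATAC-seq it was 10.7% of 3460. The lack of an assigned region therefore cannot be read as a lack of H3K27ac at these genes. The ATAC-seq table assigned 7 of its 3582 regions to 5 members, all but 1 of them in gamma, with 1 signal value per group and no replicate. Their positions relative to the start site run from -928 to 30 bases by that table. Coordinates are not printed, because the start sites implied by the table lie 133 kb from those of GRCm38, the build that was named.

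The strongest of the 7 regions were at Pcdha11, Pcdhga10 and Pcdhgb7. The Pcdha11 region, at -162 bases, had a signal of 80.5 in sham, 74.5 in 6-OHDA and 104 in 6-OHDA+NDST3, and the Pcdhgb7 region had 87.5, 87 and 133. The Pcdhga10 region, at 30 bases, had 72.2, 101 and 93.4. These 3 were above 86.3% or more of all regions in each group, while the 4 regions at Pcdhga3 and Pcdhga4 had signals between 8.5 and 47.4. The ratio of 6-OHDA to sham ranged from 0.926 to 1.53 over the 7 regions with a median of 1.33, beside 1.08 over 3537 regions with values in all groups. No region changed 2-fold in any of the 3 comparisons, beside 6.19% of all regions higher and 6.87% lower in 6-OHDA against sham, 5.88% and 4.47% in 6-OHDA+NDST3 against 6-OHDA, and 10% and 7.15% in 6-OHDA+NDST3 against sham. At Pcdha11 itself the mRNA had 1.08 and 1.10 FPKM in sham and 0.625 in 6-OHDA (log2 fold change -0.82, edgeR adjusted p = 0.0879), and 0.679 and 0.977 in 6-OHDA+NDST3.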

How the data were processed

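Bulk RNA-seq (5 libraries), H3K27ac CUT&RUN, ATAC-seq and scRNA-seq tables of mouse brain were used. For RNA-seq the authors used Trimmomatic for trimming, HISAT2 for alignment to mm10 and StringTie for quantification, and deposited a read count, an FPKM and a TPM for each gene. The ATAC-seq and CUT&RUN signal of each region was deposited once per group, with a normalization not given in the sources used here. The column heads of the scRNA-seq table speak of mean counts, but the deposited values fit a natural log of 1 plus a count scaled by the authors to 10000 UMIs per cell.

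Counts of all 20328 genes entered edgeR 4.0.16 (R 4.3.3) with TMM factors and its default filter, which left 19300 genes. A quasi-likelihood fit with 1 mean per group over all 5 libraries left 2 residual degrees of freedom. Adjustment followed Benjamini-Hochberg over every gene tested. Members were called at an adjusted p below 0.05, or by a 2-fold change with an unadjusted p below 0.05. The SE was taken as the absolute log2 fold change over the root of the F statistic. Alternatives were DESeq2 1.42.0, limma (version 3.58.1) with a pseudocount of 0.1 or 1 on FPKM, other scaling factors and filters, only the 2 groups compared, a replicate block, and each replicated library left out in turn. Exact intervals of ratios cover counting error only. RefSeq gave the gene positions on GRCm38.

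The members, gene lists and marker lists were chosen with earlier results of these data known. Genes named are the C-type isoforms, the 2 genes of highest mean FPKM per cluster, the 2 largest values in each direction per cluster and comparison, and up to 5 members per cluster with an adjusted p below 0.05. Pcdha3, Pcdha11, Pcdhga7, Pcdhgb5 and Pcdhgb6, and the symbols named from scRNA-seq and ATAC-seq, were chosen after their values were seen. Outside the clusters, no rule set which genes of the regulator, partner and non-clustered lists were named, so those genes do not represent their lists. Fold changes and p-values among the deposited columns come from the authors' own comparisons and were not used. Other steps used Python 3.11.15, pandas 2.3.3, numpy 2.4.6, scipy 1.17.1 and, for plots, matplotlib 3.10.9.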

Additional observations from a re-analysis of the deposited data

How the results depend on the processing

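Same-numbered libraries of sham and 6-OHDA+NDST3 did not deviate together (correlation -0.337), so the numbers were not taken to pair them. With the replicate block, calls by adjusted p were 4 in 6-OHDA against sham and 0 in 6-OHDA+NDST3 against 6-OHDA, the alpha median of the first was -0.75 and the gamma median of the second 0.081. With the numbers crossed, an alternative chosen after seeing the data, 11 and 10 members were called, beside 7444 and 4795 of all 19300 genes.

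In 6-OHDA+NDST3 against 6-OHDA, adjusted calls were 0 with only the 2 groups compared and with limma on log2(FPKM + 0.1). Neither setting called any gene at all. On log2(FPKM + 1) they were 4, beside 12.3% of all genes. On log2(FPKM + 1), calls by fold and unadjusted p were 3 and 2 in the first and second comparison, the alpha medians -0.39 and 0.34, and the beta medians -0.18 and 0.15. On log2(FPKM + 0.1) the alpha medians were -0.75 and 0.70, and crossed numbers gave 0.67 for the second. A larger pseudocount shrinks the values of low genes by construction. In 6-OHDA+NDST3 against sham, DESeq2, both limma fits and a mean count of at least 50 left 0 calls by fold.

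On summed TPM the log2 ratios of 6-OHDA to sham were -1.22 for alpha, -0.39 for beta and 0.27 for gamma, and those of 6-OHDA+NDST3 to 6-OHDA 1.02, 0.37 and -0.11. Without C-type isoforms gamma gave 0.17 and -0.038, and alpha 0.73 in the second. Without Pcdhgc3, chosen after seeing the data, gamma gave 0.093, 0.019 (reversed) and 0.11 in the 3 comparisons.

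Leaving out 1 library at a time gave 0 to 9, 0 to 5 and 0 calls by adjusted p, and 9 to 12, 6 to 9 and 0 to 3 by fold. Alpha medians ran from -1.28 to -0.77, 0.83 to 0.88 and -0.27 to 0.22, beta medians from -0.51 to -0.33, 0.25 to 0.36 and -0.15 to 0.07, and gamma medians from 0.024 to 0.099, 0.0045 to 0.016 and 0.041 to 0.15. Ratios of summed CPM ran from -1.13 to -0.91, 0.84 to 0.89 and -0.27 to -0.043 in alpha, from -0.27 to -0.13, 0.13 to 0.29 and -0.07 to 0.09 in beta, and from 0.45 to 0.46, -0.34 to -0.20 and 0.12 to 0.26 in gamma.

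Signs turned for genes near 0 in 6-OHDA+NDST3 against sham. With 1 library left out, the log2 fold change ran from -1.04 (without sham replicate 1) to 0.45 (without sham replicate 2) for Pcdha1, -0.27 to 0.59 (the same libraries) for Pcdha5, -0.13 to 0.082 for Pcdhac1 (0.064 without sham replicate 1), -0.20 to 0.011 for Pcdhb17, -0.49 to 0.023 for Pcdhb21 and -0.56 to 0.14 for Pcdhga9 (0.094 without 6-OHDA+NDST3 replicate 1). Pcdhac1 was also 0.0121 and 0.00706 with pseudocounts of 0.1 and 1. Against 6-OHDA, Pcdha12 ran from -0.40 to 0.12. Of the other recomputed values of named genes, 619 kept direction and side of the threshold, 82 lost the threshold and 7 gained it. The cause of these shifts was not tested.

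In scRNA-seq 1 member passed a level of 0.05, beside 54.3% of all genes, and 17 passed 0.02, beside 64.1%. At 1.5-fold, 1, 2 and 3 of 7 ATAC-seq regions changed in the 3 comparisons, beside 34.5%, 26.7% and 41.7% of all regions. Alternatives for H3K27ac were not run because no region was assigned to a member. A single 6-OHDA library limits every comparison that uses it, and low counts limit Pcdha8 and Pcdhb1.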
